A study of Mus musculus with 6 samples.

Results

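The medullary osmolyte and urea genes are 8 genes that kidney cells use to move urea and to hold organic osmolytes. They were picked by gene symbol with earlier results of these data known, and all 8 were found among the 24422 genes of the count tables. The 7 members described are the urea transporters Slc14a1 and Slc14a2, the transcription factor Nfat5, aldose reductase Akr1b3 and the osmolyte transporters Slc5a3, Slc6a12 and Slc6a6. The study asked how iron deficiency changes gene expression in the postnatal mouse kidney, and RNA-seq libraries of 6 whole kidneys were compared here. Control kidneys (n = 3) came from wild type C57BL/6 pups whose dams ate a diet with 220 ppm iron. Iron-deficient (FeD) kidneys (n = 3) came from wild type C57BL/6 pups whose dams were kept on synthetic food holding 2 to 6 ppm iron before mating, through pregnancy and while nursing. All kidneys were labelled as postnatal day 15. The labels give neither the litter nor the sex of a pup, so litter and diet cannot be told apart, and P values reflect the spread between these 6 kidneys.

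Counts on genes totalled 18312543, 16189041 and 20374327 in control kidneys 1 to 3 and 17833878, 13732173 and 20853293 in FeD kidneys 1 to 3. A gene with 3 counts stood at 0.144 to 0.218 CPM (counts scaled to the size of the library), a floor that covers counting error only. All 9 genes of a list of kidney epithelium, with Umod, Lrp2, Slc34a1, Slc12a3 and Aqp2 among them, were tested, and their summed level lay between 8714 and 15990 CPM, so markers of the labelled tissue were present in every library. Whole kidneys were sequenced, and the part of each signal that came from the medulla was not resolved. Some libraries stood apart. FeD kidney 2 carried genes of the adrenal cortex, with a summed level of 778 CPM over 6 listed genes against 11.8 and 12.5 CPM in FeD kidneys 1 and 3. Control kidney 1 had 71.8 CPM of these genes against 10.8 and 7.82 CPM in control kidneys 2 and 3. Star was the most abundant of them, Cyp21a1 had 3443 normalized counts in FeD kidney 2, Hsd3b1 had 3395 there and 989 in control kidney 1, and no listed gene was at 0 in every kidney. Beside Hsd3b1, Cyp11a1 stood out in control kidney 1, with 122.7 normalized counts against 4.43 and 4.45 in control kidneys 2 and 3. Cyp21a1 (4.79) and Cyp11b1 (0) were not raised in control kidney 1, and Star had 165.8 there against 157.1 and 124.6. FeD kidney 3 was the highest of the FeD kidneys for 6 of the 6 tested genes described here, against 36.6% of all 15145 tested genes. Fold changes of the members are therefore given with and without these kidneys where that changed them, whereas calls on the other lists are from all 6 kidneys only.

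The inner part of the kidney concentrates urine by building up salt and urea in its interstitium. Urea transporters in the collecting duct and in the descending vasa recta recycle urea there, and cells of this region balance the high tonicity outside by accumulating sorbitol, myo-inositol, betaine and taurine. The transcription factor NFAT5 (TonEBP) is activated by hypertonicity and drives the genes for aldose reductase and for the transporters of these osmolytes.

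In FeD kidneys the betaine transporter Slc6a12 was downregulated 6.52-fold and the taurine transporter Slc6a6 was upregulated more than 2-fold. Slc14a2, Nfat5 and Slc5a3 had means in FeD kidneys close to those of controls, with a wide spread among FeD kidneys. Slc14a1 was lower in each FeD kidney than in any control kidney but missed the threshold of the test. Akr1b3 was at or near 0 counts in every kidney. Of the 7 genes, 6 passed the filter on low counts and were tested across all genes with edgeR's quasi-likelihood test and Benjamini-Hochberg adjustment. Upregulated at an adjusted P under 0.05 was 1 of the 6, beside 22.4% of all tested genes, and downregulated was 1 of the 6, beside 23.3%. Both changed at least 2-fold, a size that 4.34% of tested genes reached upward and 5.69% downward. The control and FeD kidneys did not overlap for 3 of the 6 genes, beside 58.1% of tested genes. These shares describe the genes and were not tested as a set. The median log2 fold change was -0.03 over the 6 tested genes and -0.002 over all tested genes. The smallest P that an exact permutation test allows with 3 kidneys a group is 0.10, and P values therefore come from the model across genes. In bulk RNA, fewer cells of a type and less RNA per cell cannot be told apart.

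**Figure D1:**
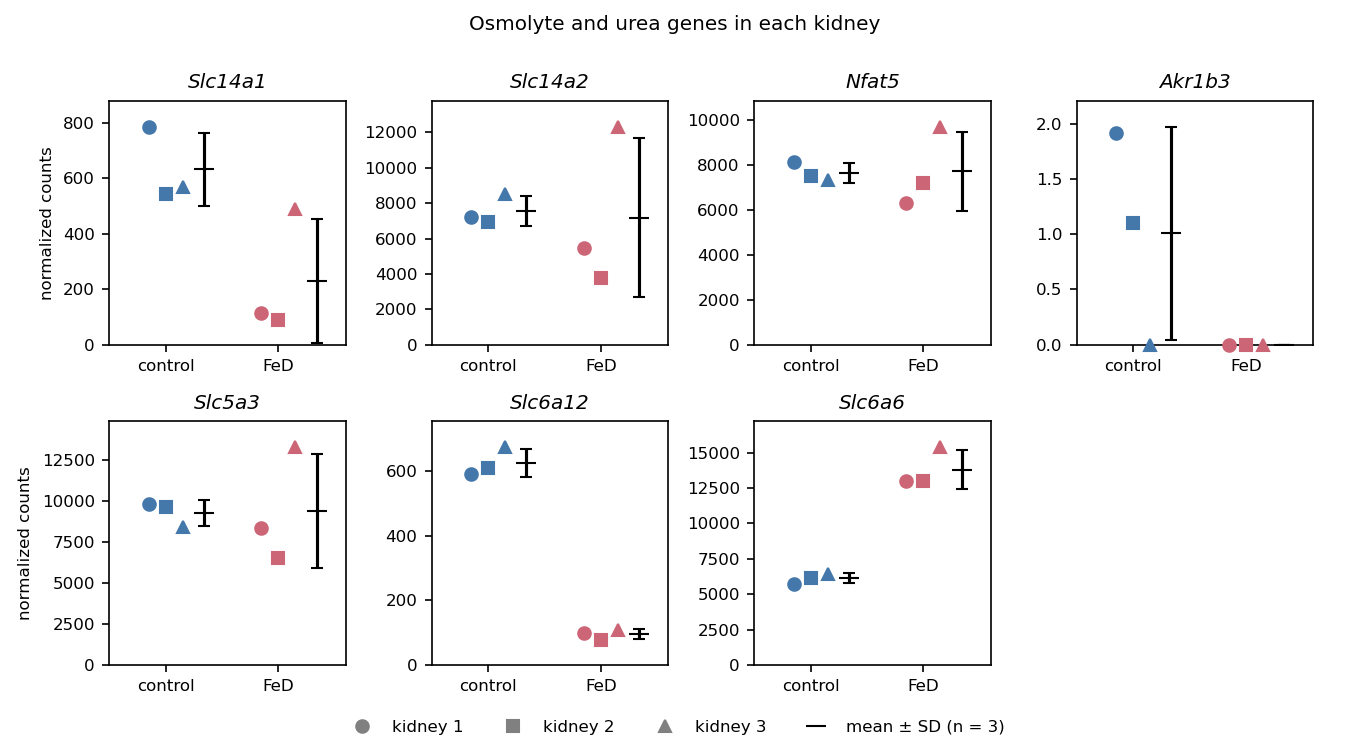
Normalized counts (TMM-scaled to the mean library size, linear axes from 0) of the 7 genes in each control (blue) and FeD (red) kidney, with symbols for kidneys 1 to 3 and black bars for the mean ± SD. Slc6a12 and Slc6a6 separate the groups by wide margins, whereas FeD kidney 3 lies above the other FeD kidneys for Slc14a1, Slc14a2 and Slc5a3.

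Slc14a1 encodes the urea transporter UT-B, known from descending vasa recta endothelium, red cells and urothelium. Its position is chromosome 18, 78296830 to 78338858, minus strand (NCBIM37, mm9), beside Slc14a2. Control kidneys 1 to 3 had 784, 543 and 569 normalized counts of Slc14a1, and FeD kidneys 1 to 3 had 115, 89.6 and 489. FeD kidneys 1 and 2 were far below the controls, FeD kidney 3 was just below the lowest control, and the groups did not overlap. The means were 632 ± 132 in control and 231 ± 223 in FeD kidneys (SD, n = 3). The log2 fold change of Slc14a1 was -1.42 (standard error 0.54, 95% interval -2.65 to -0.18), with an adjusted P of 0.0615 by edgeR with Benjamini-Hochberg adjustment, which did not pass. Without FeD kidney 3 it was -2.60 (adjusted P = 6.08e-05, edgeR). Leaving out both kidneys with adrenal cortex genes left only control kidneys 2 and 3 and FeD kidneys 1 and 3, and gave -0.86 (adjusted P = 0.268, edgeR). These were the lowest and the highest adjusted P over 14 alternatives, among which limma-voom gave -1.73 (adjusted P = 0.0184). With the replicate number as a block it was -1.75 (adjusted P = 0.0226, edgeR), although the numbers do not pair the kidneys.

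Cell types known for Slc14a1 were examined through marker lists. The counts of these lists stand beside 22.4% higher and 23.3% lower over all tested genes. Of 8 endothelial genes, 6 were lower in FeD kidneys and 0 were higher at an adjusted P under 0.05 by edgeR. Their summed level was 2361, 2371 and 2329 CPM in control kidneys 1 to 3 and 1543, 1598 and 1882 CPM in FeD kidneys 1 to 3. Aqp1 was the most abundant endothelial marker, although thin limbs and proximal tubules express it too, and no gene of this list was at 0. Emcn fell by 1.04 and Plvap by 0.74 on the log2 scale, whereas Pecam1 did not pass (log2 fold change 0.09). Of 12 red cell genes, 11 were in the table and 5 were tested, of which 2 were lower and 0 were higher by edgeR. The red cell list summed to 194, 261 and 225 CPM in control kidneys and 111, 88.0 and 130.4 CPM in FeD kidneys. Slc4a1, its most abundant gene and one that intercalated cells also use, fell by 1.42, and Bpgm fell by 0.40 on the log2 scale. The globin genes Hba-a1, Hba-a2, Hbb-b1, Hbb-b2, Hbb-bs and Hbb-bt were listed at 0 in every kidney. Alas2, the first enzyme of heme synthesis in red cell precursors, had 336, 761 and 488 normalized counts in control kidneys and 413, 199.9 and 92.4 in FeD kidneys, so the globin zeros were not read as an absence of red cells. Of 7 urothelial genes, Krt20 was higher and 4 (Upk2, Upk3a, Upk3b and Krt5) were lower by edgeR. Urothelial genes summed to 84.5, 86.8 and 105.4 CPM in control and 95.6, 65.3 and 71.6 CPM in FeD kidneys, with Upk3b the most abundant and no gene at 0. Among them, Krt20 rose by 3.13, Upk2 fell by 1.51 and Krt5 fell by 1.35 on the log2 scale. The part of these cell types in the level of Slc14a1 was not tested.

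Slc14a2 encodes the UT-A urea transporters of the inner medullary collecting duct and thin descending limb. Its position is chromosome 18, 78342883 to 78405833, minus strand. Slc14a2 had 7243, 6931 and 8521 normalized counts in control kidneys 1 to 3, and FeD kidneys 1 to 3 had 5453, 3785 and 12297. FeD kidneys 1 and 2 were below every control, FeD kidney 3 was above every control, and the groups overlapped. The means were 7565 ± 843 in control and 7178 ± 4511 in FeD kidneys (SD, n = 3), a log2 fold change of -0.07 (95% interval -0.92 to 0.77, adjusted P = 0.884, edgeR). Leaving out FeD kidney 3 gave -0.70 (adjusted P = 0.00684, edgeR), and leaving out FeD kidney 2 gave 0.25 (adjusted P = 0.512, edgeR). The value was also above 0 without FeD kidney 1 (0.11), without control kidney 3 (0.02) and without the kidneys with adrenal cortex genes (0.21), so its direction depended on which kidneys were included. Over its 14 alternatives the adjusted P of Slc14a2 ranged from 0.00684 to 0.979. Collecting duct genes, 8 of 8 tested, summed to 1451, 1485 and 1963 CPM in control kidneys 1 to 3 and 2904, 2001 and 3336 CPM in FeD kidneys 1 to 3. In that list 4 genes (Aqp2, Aqp3, Gata3 and Scnn1g) were higher and 2 (Avpr2 and Hsd11b2) were lower by edgeR, beside 22.4% and 23.3% of all tested genes. Aqp2 was the most abundant and no gene of that list was at 0. The water channels Aqp2 and Aqp3 rose by 1.13 and 1.10 on the log2 scale, whereas Hsd11b2 fell by 0.30. The part of the collecting duct in the level of Slc14a2 was not tested.

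**Figure D2:**
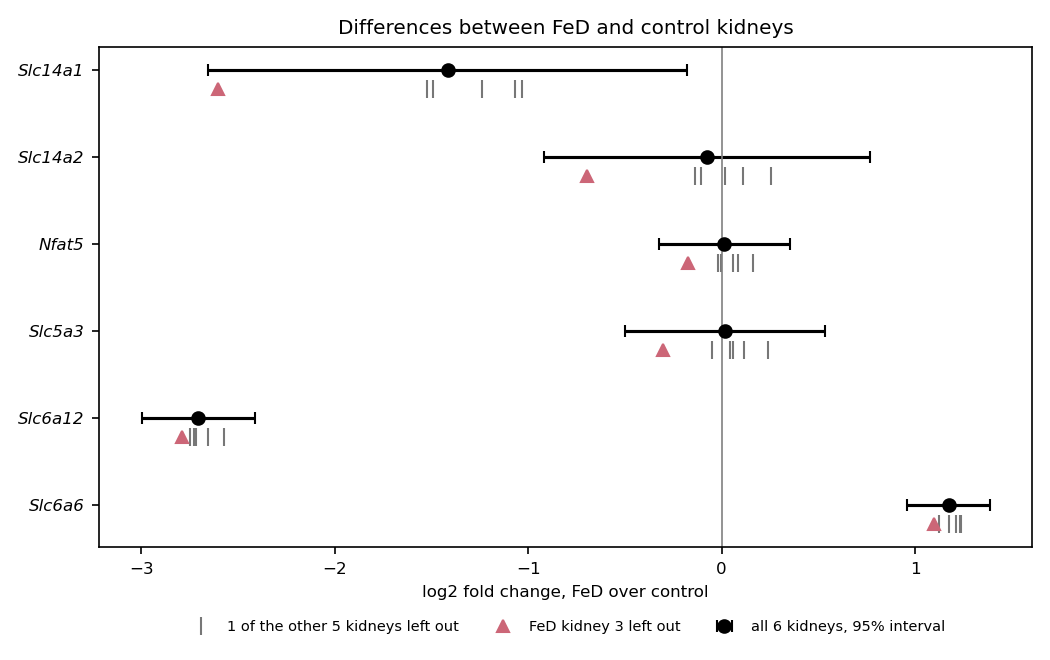
Log2 fold changes (FeD over control) of the 6 tested genes, with black points and 95% intervals for all 6 kidneys, gray ticks for each of the other 5 kidneys left out in turn and red triangles for FeD kidney 3 left out. The triangle lies at -2.60 for Slc14a1 and -0.70 for Slc14a2, apart from the ticks, but close to them for Slc6a12 and Slc6a6.

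Nfat5, the tonicity-activated transcription factor, lies on the plus strand of chromosome 8 from 109817370 to 109903417. Control kidneys 1 to 3 had 8136, 7493 and 7308 normalized counts of Nfat5, and FeD kidneys 1 to 3 had 6289.9, 7187 and 9682. FeD kidney 3 was above every control and FeD kidneys 1 and 2 were below every control, so the groups overlapped. The means of 7645 ± 435 and 7719.6 ± 1758 (SD, n = 3) gave a log2 fold change of 0.01 (95% interval -0.32 to 0.35, adjusted P = 0.945, edgeR). Its sign changed under 5 of 14 alternatives, over which the adjusted P ran between 0.104 and 0.991. It was -0.17 without FeD kidney 3, -0.02 without control kidney 3, -0.0036 without control kidney 2 and 0.12 without the kidneys with adrenal cortex genes (adjusted P = 0.673, edgeR). The interval lies within a 2-fold change in either direction. Activity of the NFAT5 protein is not measured by its transcript.

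Akr1b3 encodes aldose reductase, which makes sorbitol from glucose, and has its gene at chromosome 6, 34253934 to 34267497, minus strand. Akr1b3 had 2, 1 and 0 raw counts in control kidneys 1 to 3, and each FeD kidney had 0. These values are at or under the floor of 3 counts, and no fold change is given. The mouse genome holds 3 other loci that match 96.2% of an Akr1b3 transcript of 1406 bases. They lie on chromosomes 1, 11 and 12 and match at 99.0% to 99.7% identity. The longest annotated transcript of Akr1b3 has 3254 bases. Of the 100-base windows of the transcript of 1406 bases, 72.9% recur exactly at 1 or more of these 3 loci. No near-identical locus was found for the other 6 genes, so their windows were not searched. The count of Akr1b3 depends on how reads that match several loci were treated, so it is uncertain and was not read as its expression. What keeps this count low was not tested. Gm6644, annotated at the copy on chromosome 1, was listed at 0 in every kidney.

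Slc5a3 encodes the sodium-coupled myo-inositol transporter SMIT1 and lies on the plus strand of chromosome 16 from 92058567 to 92087718. Control kidneys 1 to 3 had 9844, 9648 and 8401 normalized counts of Slc5a3, and FeD kidneys 1 to 3 had 8372, 6554 and 13296. Again FeD kidney 3 was above and FeD kidneys 1 and 2 were below every control. The means were 9298 ± 782 and 9408 ± 3488 (SD, n = 3), a log2 fold change of 0.02 (95% interval -0.50 to 0.54, adjusted P = 0.955, edgeR). Leaving out FeD kidney 3 turned it to -0.30 (adjusted P = 0.0607, edgeR), the lowest adjusted P over its 14 alternatives, of which the highest was 0.983. Without control kidney 3 it was -0.05, and without the kidneys with adrenal cortex genes it was 0.27 (adjusted P = 0.37, edgeR). Mrps6, on the same strand, shares 6.38% of the exon bases of Slc5a3, so the counts of the genes can depend on how shared reads were treated. Mrps6 itself had 2548 ± 148 normalized counts in control and 2213 ± 434 in FeD kidneys and missed the threshold, with a log2 difference of -0.20 (adjusted P = 0.242, edgeR).

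Slc6a12 encodes the betaine and GABA transporter BGT1 and lies on the plus strand of chromosome 6 from 121293094 to 121315793. In control kidneys 1 to 3, Slc6a12 had 592, 609.5 and 673 normalized counts, and FeD kidneys 1 to 3 had 99.98, 77.9 and 107. Every FeD kidney was far below every control, FeD kidney 3 included. The mean fell from 625 ± 42.7 to 94.97 ± 15.2 (SD, n = 3). Its log2 fold change was -2.70 (standard error 0.13, 95% interval -3.00 to -2.41, adjusted P = 8.86e-06 by edgeR with Benjamini-Hochberg adjustment). Thin limb genes, 8 of 8 tested, were examined beside it, since thin limbs are a main cell type of the inner medulla. In that list 5 genes (Sptssb, Fst, Cryab, Bst1 and Aqp1) were lower and 0 were higher by edgeR, beside 23.3% and 22.4% of all tested genes. The list summed to 1806, 1808 and 1844 CPM in control kidneys 1 to 3 and 1225, 1134 and 1307 CPM in FeD kidneys 1 to 3. Aqp1 was the most abundant and no gene was at 0. Sptssb fell by 3.09, Fst fell by 2.66 and the small heat shock protein Cryab fell by 1.72 on the log2 scale. Thick limb genes, 6 of 6 tested, summed to 8875, 8512 and 9211 CPM in control and 6161, 5280 and 8912 CPM in FeD kidneys, with 2 (Egf and Cldn19) lower and 0 higher by edgeR, Slc12a1 the most abundant and none at 0. Egf fell by 1.62 on the log2 scale, whereas Slc12a1 and Umod did not pass (log2 fold changes 0.13 and -0.40). The collecting duct list, summed above, was higher, at 1.23 to 2.04 of the control mean in FeD kidneys, most of it from Aqp2 and Aqp3. The part of these segments in the level of Slc6a12 was not tested.

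Promoter windows of 300 bases, from 250 before to 50 after a start site (RefSeq, GRCm38.p6), were held by the table for 3 of the 7 genes, namely Nfat5 (1 start site), Slc5a3 (1) and Slc6a12 (5). Entries for Slc14a1, Slc14a2, Akr1b3 and Slc6a6 were missing from it. The windows were searched on both strands for the tonicity-responsive enhancer TonE, the element that NFAT5 binds, and for its core TGGAAA, which every TonE match contains. TonE was found in 1 of the 5 windows of Slc6a12, starting 75 bases before the start site, and in no window of Nfat5 or Slc5a3. Of 32851 windows in the table, 4.96% held TonE and 21.4% held the core. Of 27025 genes, 5.74% held TonE in at least 1 window, and a gene with more windows, such as Slc6a12, has more places for a match. The window of Slc6a12 that holds the match (chr6:121342324-121342623, plus strand) and the window of Slc5a3 (chr16:92058072-92058371, plus strand) are printed because these transporters are textbook targets of NFAT5 and had unlike values in FeD kidneys. Capitals mark the TonE match, and a match is a description of letters, not of binding. Bases outside these windows were not searched, so a missing match does not bear on control by NFAT5. A link between the match and the values in FeD kidneys was not tested.
Slc6a12: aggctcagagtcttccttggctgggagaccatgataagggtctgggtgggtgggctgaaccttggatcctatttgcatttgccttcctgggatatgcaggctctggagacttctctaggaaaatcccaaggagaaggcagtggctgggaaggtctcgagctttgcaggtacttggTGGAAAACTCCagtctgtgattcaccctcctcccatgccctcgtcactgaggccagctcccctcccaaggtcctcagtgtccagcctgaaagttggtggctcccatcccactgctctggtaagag
Slc5a3: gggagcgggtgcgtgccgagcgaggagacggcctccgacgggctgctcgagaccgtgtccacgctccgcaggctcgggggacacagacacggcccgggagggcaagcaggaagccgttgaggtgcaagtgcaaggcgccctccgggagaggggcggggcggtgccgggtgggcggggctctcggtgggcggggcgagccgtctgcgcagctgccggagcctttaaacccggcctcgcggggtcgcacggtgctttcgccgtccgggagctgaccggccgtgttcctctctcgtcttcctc

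Slc6a6 encodes the taurine transporter TauT and lies on the plus strand of chromosome 6 from 91634061 to 91709057. Control kidneys 1 to 3 had 5744, 6168.5 and 6442 normalized counts of Slc6a6, and FeD kidneys 1 to 3 had 13015, 12996 and 15372. Each FeD kidney was more than double every control, and the groups were widely separated. The mean rose from 6118 ± 352 to 13794 ± 1366 (SD, n = 3). On the log2 scale Slc6a6 rose by 1.17 (standard error 0.09, 95% interval 0.96 to 1.39, adjusted P = 6.89e-05 by edgeR with Benjamini-Hochberg adjustment). The transporters of betaine and taurine thus changed in opposite directions in the same kidneys.

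Levels were compared between genes as counts per kilobase of exon, scaled to library size (RPKM), without Akr1b3. In control kidneys the order was Slc14a2 (90.3 ± 10.1 RPKM), Slc6a6 (55.5 ± 3.19), Slc5a3 (47.7 ± 4.02), Nfat5 (23.3 ± 1.32), Slc6a12 (11.5 ± 0.784) and Slc14a1 (8.86 ± 1.86, SD, n = 3). Neighbours in this order did not overlap over the control kidneys, except Slc6a12 and Slc14a1. In FeD kidneys the order of mean levels was Slc6a6 (125 ± 12.4 RPKM), Slc14a2 (85.7 ± 53.8), Slc5a3 (48.3 ± 17.9), Nfat5 (23.5 ± 5.36), Slc14a1 (3.24 ± 3.13) and Slc6a12 (1.74 ± 0.279). There Slc14a2 overlapped both Slc6a6 and Slc5a3, and Slc14a1 overlapped Slc6a12. With the length of the longest transcript in place of all exons, the level of Slc14a2 in control kidneys was 145.8 RPKM, and it led the order of means in both groups.

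**Figure D3:**
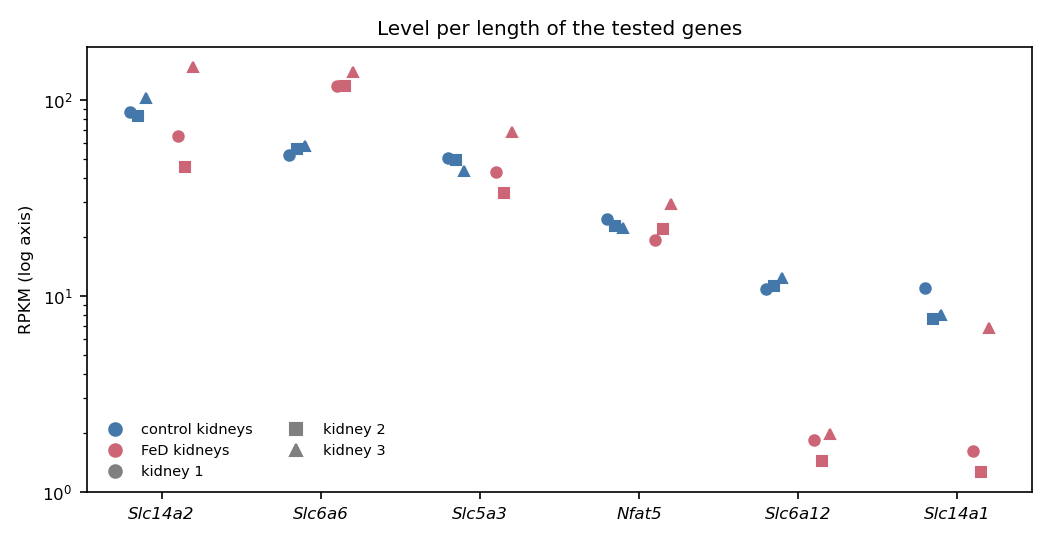
Level of the 6 tested genes in RPKM (log axis) in each control (blue) and FeD (red) kidney, ordered by the control mean. By their means Slc14a2 leads in control kidneys and Slc6a6 in FeD kidneys, and FeD kidney 3 (triangles) holds the highest Slc14a2 level, at 147 RPKM.

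The spread among FeD kidneys differed between the genes. The coefficient of variation over the 3 FeD kidneys was 96.7% for Slc14a1, 62.8% for Slc14a2, 37.1% for Slc5a3 and 22.8% for Nfat5, but 16.0% for Slc6a12 and 9.91% for Slc6a6. Over the 3 control kidneys it was at most 20.95%, for Slc14a1. The highest FeD kidney was at least 1.5-fold above the middle one for 3 of the 6 tested genes, Slc14a1, Slc14a2 and Slc5a3, beside 7.89% of all tested genes. In controls 0 of the 6 genes had such a gap, beside 3.67% of all tested genes. FeD kidney 3 was the highest FeD kidney for 6 of 8 thin limb and 6 of 8 collecting duct genes. It was also highest for 10 of 13 listed tonicity genes, but for 2 of 8 proximal genes, beside 36.6% of all tested genes. The thin limb gene Fst was lowest there, with 28.0, 76.6 and 14.7 normalized counts in FeD kidneys 1 to 3. Some genes of the lists, named after their values were seen, had their highest FeD value in FeD kidney 3. The thin limb gene Corin had 571, 544 and 1475 normalized counts in FeD kidneys 1 to 3, the water channel Aqp4 had 1927, 1149 and 4069, and Ranbp3l had 1739, 1071 and 4564. For each of these, FeD kidney 3 was more than 2-fold above FeD kidneys 1 and 2, and none passed the test between groups by edgeR. What sets FeD kidney 3 apart was not tested.

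**Figure D4:**
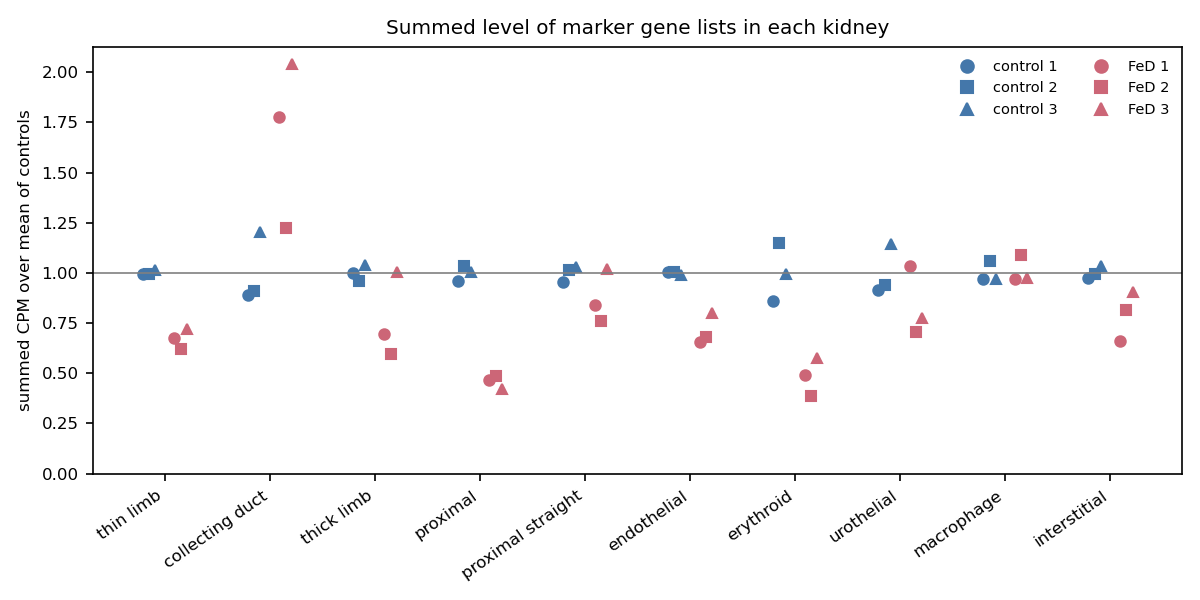
Summed CPM of each marker list in each control (blue) and FeD (red) kidney, divided by the mean of the control kidneys (linear axis from 0). The sum of the collecting duct list, most of it from Aqp2 and Aqp3, is above 1 in every FeD kidney (1.23 to 2.04), thin limb genes are below 1 in every FeD kidney (0.623 to 0.718), and thick limb genes are at 1.005 in FeD kidney 3.

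Of 16 other listed osmolyte enzymes and carriers, all tested, 1 was higher and 8 were lower in FeD kidneys by edgeR, beside 22.4% higher and 23.3% lower over all tested genes, and their median log2 fold change was -0.42. The list is wider than the osmolytes named above and also holds Pnpla6, Gpcpd1, Gdpd5 and Slc38a2. Miox, which breaks down myo-inositol in the proximal tubule, fell by 3.39 on the log2 scale, from 25705 ± 947 to 2446 ± 638 normalized counts (SD, n = 3). The second myo-inositol transporter, Slc5a11, fell by 1.70. Aldh7a1, which can oxidize betaine aldehyde to betaine, fell by 1.27, and Bhmt, which uses betaine to remethylate homocysteine, fell by 2.22. The gene that was higher, named after its values were seen, was the neutral amino acid transporter Slc38a2, with a rise of 0.75. Miox is also a proximal tubule marker, and 6 of 8 genes of that list were lower and 0 higher by edgeR. The proximal list summed to 9350, 10110 and 9803 CPM in control kidneys and 4553, 4761 and 4107 CPM in FeD kidneys, with Slc34a1 the most abundant and none at 0. Its part in the fall of these enzymes was not tested.

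Of 13 other genes known as induced by hypertonicity or as NFAT5 targets, all tested, 3 (Aqp2, Sgk1 and Akap13) were higher and 5 (Cryab, Hspa4l, Hspa1b, Hspb1 and Aqp1) were lower by edgeR, with a median log2 fold change of -0.32. Cryab fell from 5699 ± 480 to 1728 ± 327 normalized counts (SD, n = 3), and Aqp1 fell by 0.45 on the log2 scale, whereas Aqp2 rose. Atp1b1, the beta subunit of the sodium pump, missed the threshold, with a log2 difference of -0.20 (adjusted P = 0.137, edgeR). Over all tested genes 22.4% were higher and 23.3% lower, so calls in both directions are not particular to this list.

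Of 11 listed enzymes and carriers of arginine and urea metabolism, 7 were tested, and these 7 were lower in FeD kidneys by edgeR, beside 23.3% of all tested genes, and their median log2 fold change was -0.69. Proximal tubule markers, summed above, were lower in the same kidneys, and their part in these values was not tested. Gatm, the first enzyme of creatine synthesis, fell by 1.32 on the log2 scale, Agmat by 2.74, Ass1 by 0.69 and Oat by 0.45. Agmat was low in level, with 35.6 ± 2.54 normalized counts in control kidneys.

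Of 12 genes of the urine concentrating mechanism other than the members, all tested, 4 were higher and 3 (Aqp1, Avpr2 and Bsnd) were lower by edgeR, with a median log2 fold change of 0.06. These counts lie near the shares over all tested genes (22.4% higher and 23.3% lower). Aqp2 and Aqp3 were the genes that rose at least 2-fold, and Bsnd, a subunit of chloride channels, fell by 1.01 on the log2 scale. Aqp1, Aqp2 and other genes stand in more than 1 of these lists, so the counts of the lists are not independent.

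**Figure D5:**
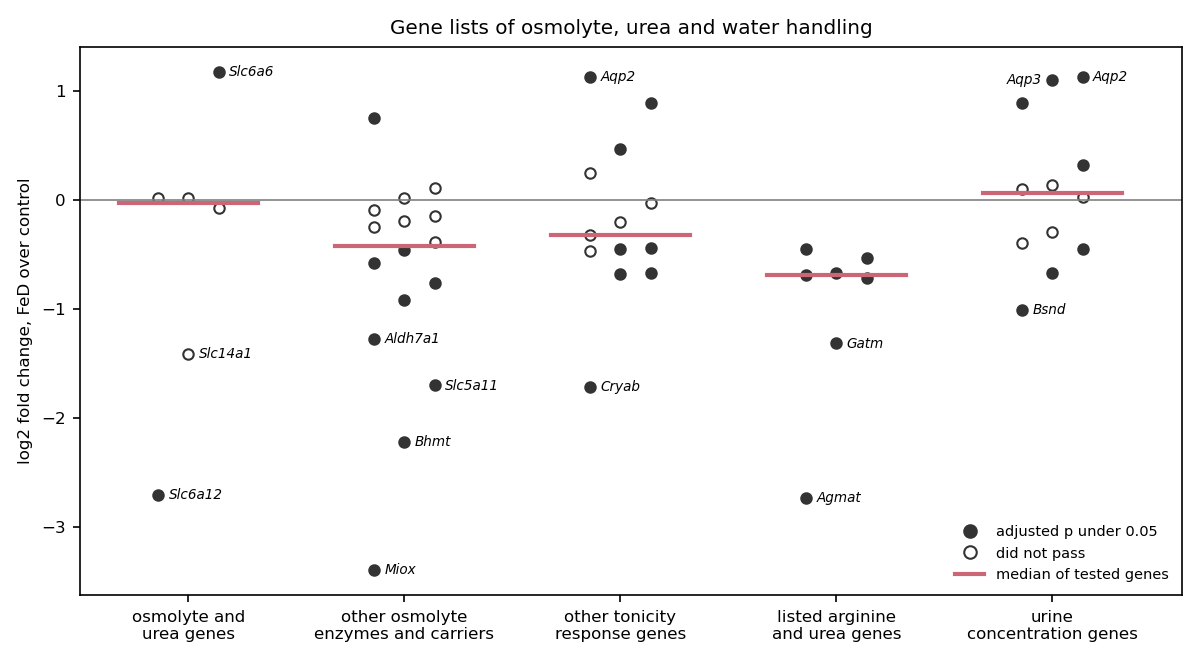
Log2 fold changes (FeD over control) of the tested genes in 5 lists, filled where the adjusted P was under 0.05 and open where it was not, with red lines for the medians and names for changes of at least 2-fold. The medians run from -0.69 for the listed arginine and urea genes to 0.06 for the urine concentration genes.

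The tested genes whose log2 CPM was most like that of each osmolyte or urea gene over the 6 kidneys were named by Pearson's r, as a description. They were Srgap3 and Myo5c for Slc14a1, Ogfod1 and Lpin2 for Slc14a2, Antxr2 and Lepr for Nfat5, Dnmbp and Ndc1 for Slc5a3, Acy1 and Perm1 for Slc6a12, and Chp1 and Man2a1 for Slc6a6. The coefficients ran from 0.98 to 1.00 (n = 6 kidneys), and the points share libraries and the split into groups. Likeness of pattern does not mean likeness of size. Acy1 fell by 2.72 on the log2 scale, close to Slc6a12, whereas the log2 fold changes of Srgap3 and Slc14a1 were -0.22 and -1.42, and neither passed. Lepr, like Nfat5, had its highest count in FeD kidney 3, with 594, 745 and 1452 normalized counts in FeD kidneys 1 to 3.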

How the data were processed

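Kidneys of 3 control and 3 FeD pups were grouped by their labels. The deposited values are raw counts of reads per gene, which the authors made, per the submitters' processing notes and the study's methods, from polyadenylated RNA with CASAVA 1.8.2, Trimmomatic, TopHat2 2.0.11 on mm9, and HTSeq; the gene annotation and strand setting are not given in the sources used here. Here genes were filtered with filterByExpr (15145 of 24422 kept), scaled by TMM and compared with edgeR 4.0.16 in R 4.3.3 (glmQLFit and glmQLFTest, Benjamini-Hochberg adjustment over all tested genes). A gene passed at an adjusted P under 0.05, and changes of at least 2-fold, the study's threshold, were counted beside it. The standard error is the size of the log2 fold change over the square root of F. The procedure was tested on simulated data. Alternatives used DESeq2 1.42.0, limma 3.58.1, other scalings and filters, the replicate number as a block, and each kidney left out in turn. Libraries of a group differed by 3.77 to 30.4 chi-square per degree of freedom, so none was a copy. Positions, exon lengths and overlaps came from the GENCODE annotation of NCBIM37; near-identical copies were sought with minimap2 2.31 (at least 95% identity over 90% of a transcript). Promoters came from RefSeq (GRCm38.p6).

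Members and lists were chosen with earlier results of these data known. Named are 7 of the 8 members, since 1 member and a few other genes are not reported here, and counts over members are over these 7; from each list every gene that passed with at least a 2-fold change, and the 3 genes with the largest mean count where fewer than 3 did; for each of their tested genes the 2 genes (mean of at least 100 normalized counts) with the highest Pearson's r over 6 kidneys, from log2 CPM with a pseudocount of 0.5; and from marker lists the most abundant gene and those at 0. Other genes, such as those that complete a count of 5 or fewer, were named after their values were seen.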

Additional observations from a re-analysis of the deposited data

How the results depend on the processing

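Slc6a12 and Slc6a6 kept their direction and passed under each of 14 alternatives, with log2 fold changes from -2.79 to -2.57 and 1.10 to 1.24. With each kidney left out in turn, Slc14a1 ran from -2.60 to -1.03, Slc14a2 from -0.70 to 0.25, Nfat5 from -0.17 to 0.16 and Slc5a3 from -0.30 to 0.24, and 1 to 3 members were downregulated; the lowest values and the count of 3 came without FeD kidney 3. Limma-voom gave -1.73 for Slc14a1 (which then passed), -0.0098 for Nfat5 and -0.0476 for Slc5a3, and 2 members downregulated. The replicate block gave -1.75 for Slc14a1 (adjusted P = 0.0226, edgeR), -0.0084 for Nfat5 and -0.0447 for Slc5a3, 2 members downregulated, and 3100 higher and 3344 lower genes against 3397 and 3527 without it; the numbers do not pair the kidneys, since same-numbered kidneys deviated with r of -0.16, 0.00 and -0.04. Without control kidney 1 and FeD kidney 2, chosen after seeing the data for their adrenal cortex genes, Slc14a2 was at 0.21 and 2271 genes were higher and 2405 lower. At least a 2-fold change was met by 657 higher and 862 lower genes. The causes were not tested. Leaving out globin and mitochondrial genes was not run, since listed globin genes were at 0 and no mitochondrial gene was listed. Akr1b3 had too few counts for any statement.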

Other observations

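The counts of the lists below stand beside 22.4% higher and 23.3% lower over all tested genes. Of 8 macrophage genes, all tested, 4 (Cd68, Itgam, C1qa and C1qc) were higher and 1 (Csf1r) was lower in FeD kidneys by edgeR. The macrophage list summed to 131, 143 and 131 CPM in control kidneys and 131, 147 and 132 CPM in FeD kidneys, with Csf1r the most abundant and none at 0. Cd68 and Itgam rose by 1.11 and 1.37 on the log2 scale, whereas Csf1r fell by 0.45 and C1qb did not pass (log2 fold change 0.36). Of 6 interstitial genes, 3 (Pdgfrb, Pdgfra and Dcn) were higher and 2 (Col1a1 and Col3a1) were lower by edgeR, and their sum was 2491, 2541 and 2648 CPM in control kidneys and 1690.0, 2092 and 2312 CPM in FeD kidneys, with none at 0. Col3a1, the most abundant, fell by 1.05 and Col1a1 fell by 0.81 on the log2 scale, whereas Col1a2 did not pass (log2 fold change -0.25). Of the proximal tubule list used above, Slc5a2 fell by 4.89, Slc34a1 by 2.22 and Slc22a6 by 1.08, and of the kidney epithelium list Slc12a3 fell by 1.56. Of 6 genes of the proximal straight tubule, all tested, 2 (Cyp7b1 and Slc5a8) were higher and 3 (Slc7a13, Acy3 and Slc5a1) were lower by edgeR, with a sum of 786, 839 and 849.6 CPM in control kidneys and 692, 628 and 839.8 CPM in FeD kidneys. Slc3a1 was the most abundant of these and none was at 0, and Slc7a13 fell by 1.29 and Acy3 by 1.11 on the log2 scale.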
